A study of Mus musculus with 2 samples.

Results

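Very long introns of mouse colon were followed through the RNA reads that cross them once they have been removed. The members were the splice junctions that carry the tag A=1 in the authors' junction table and span at least 50000 bases. There were 2224 of them among 154088 A=1 junctions, or 1.44%, and among 402639 junctions of both tags. The other 151864 A=1 junctions, all shorter, were the set they were compared with. Length is the number of intron bases, and the membership rule used the tag and the length but no read count.

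The study sequenced polyadenylated colon RNA longer than 200 nt as 2 libraries of paired, strand-specific reads of 76 nt after removal of ribosomal RNA. The animals were C57BL/6J adults of 8 weeks, littermates of both sexes. The study had 1 group with no treatment or mutant arm, so the comparisons here are between classes of junctions and between libraries. The junction table calls its libraries R1 and R2 and the gene tables call theirs replicate 1 and replicate 2; no source used here ties one naming to the other. A single donor record is listed for both libraries, so tests between R1 and R2 compare these libraries and cover counting error only.

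An intron is cut out of a primary transcript by the spliceosome, which joins a donor site at the end of one exon to an acceptor site at the start of the next. In mammals exons are short and introns can be very long, and the longest tend to lie at the start of genes, where they often hold enhancers and alternative promoters. Transcription across a very long intron takes longer and leaves more room for other splice sites, and some of these introns are removed in several steps. Genes with very long introns include many that encode adhesion molecules, cytoskeletal scaffolds and transcription factors. Reads across a junction count finished splicing, so their number depends on how much of the transcript there is and on where along it fragments were sampled.

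The joined sequences here show which exons the most read and the longest of these junctions bring together. Each gives 15 bases from either side of the splice, with the upstream exon in lower case and the downstream exon in capitals. They come from GENCODE vM21 transcripts on GRCm38; the junction positions below are mm9 positions as deposited. The App, Igfbp7, Raly, Myo6, Parm1 and Eif2ak1 sequences belong to 6 of the 7 most read members, and those of Sdk1, Magi1, Smyd3 and Plcl1 to the 4 longest with a named gene and at least 10 reads.
App: gttcgggctctggagGTACCCACTGATGGC
Igfbp7: gcacctgcgagcaagGTCCTTCCATAGTGA
Raly: cagacctcggcgcggGTGAACACCATGTCC
Myo6: cacctgcctcgccggGAGATAGTGGATAAC
Parm1: gcatcttcaccgcagGACTGAGGGTACAGG
Eif2ak1: accccaagtatgatgAGTCCGATGTCCCCG
Sdk1: gggcgctggcgcaagATGACGTTGCACCGT
Magi1: aagccgtcagacaagGAGGAAGGCTCAACA
Smyd3: gaagcctttgcaaaaGTGATCTGCAATTCG
Plcl1: agcagcatcatcaagGATCCTTCAAACCAA
Except for Smyd3, whose join is that of intron 5, each sequence is the join of a transcript's first exon to its second.

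Gene names were given to junctions by the length of the intron alone. The deposited positions are on mm9 and the annotation is on GRCm38, so a junction was matched to an annotated intron of the same chromosome, strand and exact length, without moving any coordinate. Of the 2224 long junctions 2179 matched (98.0%), 2172 of them to a single intron. When 7 bases were added to every length, 5 matched. Long junctions with the tag A=0 matched in 289 of 69076 cases (0.418%), against 50 with 7 bases added. A single host gene was found for 2162 long junctions, which lay in 1333 genes; for 2117 of these (97.9%), another A=1 junction was present at the distance the annotation of that gene gives. The other 62 comprised 45 that matched nothing, 7 that matched more than 1 intron and 10 that matched introns of more than 1 gene, and they are called unnamed here.

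The colon label was checked on defining genes in the gene tables. Epithelial markers (Epcam, Cdh1, Krt8, Krt19, Vil1 and Muc2) summed to 18276 TPM in replicate 1 and 21157 TPM in replicate 2, and none was below 145.25 TPM. Smooth muscle markers (Acta2, Tagln, Myh11 and Actg2) summed to 5236 and 5172 TPM. Markers of enteric neurons and glia summed to 66.6 and 58.1 TPM, and those of fibroblasts to 376 and 403 TPM. Pancreatic acinar genes (Ctrb1, Cela2a and Prss2) stood at 24.4 TPM in replicate 1 and 26193 TPM in replicate 2; their part in the differences between R1 and R2 was not tested. In bulk tissue, fewer cells of a type and less RNA per cell cannot be told apart.

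Long introns gave fewer reads per junction than shorter ones. Their median was 12 reads summed over the libraries (quartiles 3 to 50), against 28 reads (quartiles 6 to 124) for shorter A=1 junctions. Each library showed the order separately, with medians of 6 long against 13 shorter in R1 and 6 against 15 in R2. Long junctions held 184276 reads, 94167 in R1 and 90109 in R2, which was 0.561% of the A=1 reads of R1 and 0.523% of those of R2. The A=1 junctions together had 16799302 reads in R1 and 17213143 in R2. The median length was 74813 bases for long junctions (quartiles 59879 to 106676, longest 479455), against 1258 bases for shorter ones.

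Reads were lower in the longer classes of introns, within the long junctions as well. The median was 45 reads for A=1 introns below 1000 bases, 21 from 1000 to under 10000 bases and 17 from 10000 to under 50000 bases. It was 14 in the class that starts at 50000 bases, 15 in that from 60000, 12 from 80000, 9 from 100000, 7 from 150000 and again 7 from 200000 to under 300000 bases. The 22 introns of at least 300000 bases had a median of 3.5 reads. Against shorter introns of 1000 to under 50000 bases only, the long median was 0.6 of theirs, where it was 0.429 of the median of all shorter ones. The junctions just inside the limit, at 50006 to 50084 bases, had 3 reads (2010111I01Rik), 4 (Rabgap1l), 7 (Mipol1), 115 (Il34) and 5 (Igsf21). Those just outside, at 49945 to 49979 bases, had 126 (Xxylt1), 1 (Xrcc4), 32 (Desi2), 760 (Sppl3) and 10 (Ptprz1), so junctions of nearly equal length differed widely in reads on either side of the limit.

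**Figure D1:**
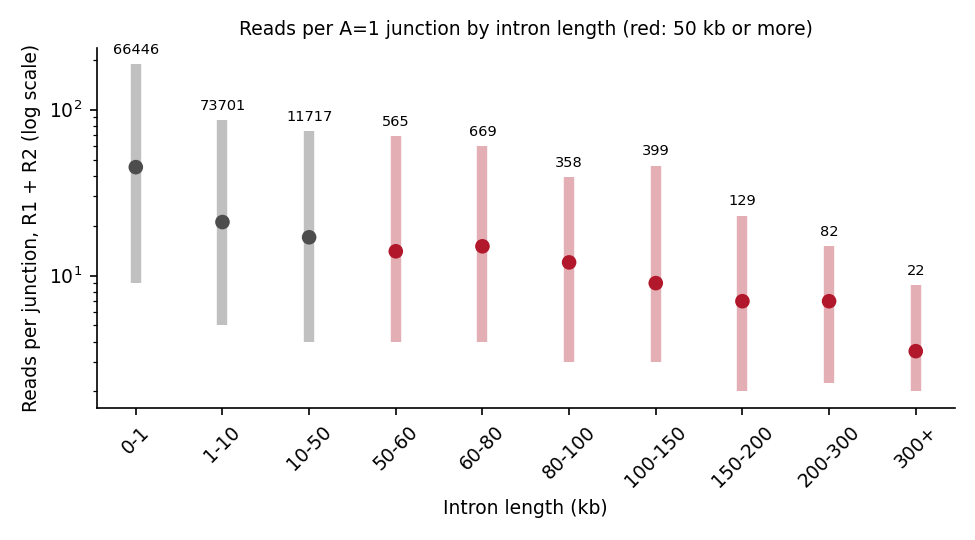
Reads per A=1 junction, R1 and R2 summed, on a log scale against classes of intron length in kilobases. Dots are medians, bars are quartiles and the numbers at their tops are counts of junctions; the median is 45 reads in the shortest class, 14 in the first class of long introns and 3.5 in the longest class.

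A few junctions held much of the long set's reads. The 10 most read had 31.1% of all reads on long junctions and the 100 most read had 59.1%. Among shorter junctions these shares were 4.20% and 14.1%. The sets hold 2224 and 151864 junctions, so equal numbers are unequal fractions of them, and concentration at equal fractions was not compared. At least 10 reads were found on 1206 long junctions (54.2%), against 68.4% of shorter ones. At least 100 reads were found on 333 (14.97%), against 28.5%, and at least 1000 on 18.

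First place was held by App, the gene of the amyloid precursor protein, a membrane protein of many cell types. Its 52804-base intron on the minus strand (chr16:85120943-85173746, ENSMUSG00000022892) is the first of the gene, and the junction had 11415 reads in R1 and 10839 in R2. Igfbp7, a secreted protein that binds insulin-like growth factors, came next. Its 51868-base first intron (chr5:77784697-77836564, minus strand, ENSMUSG00000036256) gave 7419 reads in R1 and 7244 in R2. In both genes the libraries were close, with log2 ratios of R1 over R2 of 0.11 for App and 0.07 for Igfbp7. No other long junction came near the counts of these 2.

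Atp8b1, a phospholipid flippase of epithelial membranes, had 2083 reads in R1 and 2304 in R2 on a first intron of 55299 bases that lies before the coding sequence. Raly, an RNA-binding protein of the heterogeneous ribonucleoprotein family, had 1602 and 1383 reads on 65720 bases (chr2:154617285-154683004). Myo6, the myosin that walks towards the minus end of actin filaments and works in endocytosis, had 1374 and 1493 reads on 52386 bases (chr9:80013037-80065422). These 3 introns all precede the start codon, so the join builds the 5′ untranslated region. Of the 3, Raly alone shared its splice sites with other A=1 junctions: it took 90.4% of the reads at its acceptor and 41.0% of those at its donor.

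Parm1, a mucin-like membrane protein, had 1329 reads in R1 and 1224 in R2 on 75860 bases. Eif2ak1, a kinase that responds to haem shortage by phosphorylating a translation initiation factor, had 1161 and 961 on 53854 bases. Gmds, the enzyme that opens GDP-fucose synthesis from GDP-mannose, had 1222 and 835 on 103984 bases, the longest intron among these 10. The last were Mboat1, a lysophospholipid acyltransferase, with 902 and 864 reads on 57773 bases, and Itpk1, an inositol phosphate kinase, with 953 and 678 on 52017 bases. Itpk1 was the exception in place, with the second intron where the other 9 had the first. None of the 10 was called between the libraries by the rule given below.

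The longest intron with at least 10 reads was unnamed. It spanned 479455 bases on chromosome 13 (plus strand, from 110051140 to 110530594) and had 13 reads in R1 and 4 in R2. A second unnamed junction of 298047 bases used the same acceptor and had 11 reads in R1 and 19 in R2. These 2 junctions held 22.1% and 39.0% of the A=1 reads at that acceptor. Sdk1, an adhesion molecule of the immunoglobulin superfamily, followed with a first intron of 340200 bases, at 19 reads in R1 and 43 in R2. Magi1, a scaffold of epithelial tight junctions, had 61 and 38 reads on a first intron of 339689 bases.

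Smyd3, a lysine methyltransferase, had 33 reads in R1 and 18 in R2 on 310880 bases, intron 5 of the gene. Plcl1, an inactive relative of phospholipase C, had 15 reads in R1 and 0 in R2 on 289114 bases, where a count of 0 allows up to 3. Cmss1 had 43 and 11 reads on 283122 bases. Camkmt, which methylates calmodulin, had 1 and 13 on 277725 bases. Slit3, a secreted guidance protein, had 9 and 24 on 273314 bases, and Mecom, a zinc-finger transcription factor, had 4 and 9 on 271108 bases. Reads in this tail were few. By the rule given below, 4 of the 10 junctions (Sdk1, Plcl1, Cmss1 and Camkmt) were called between the libraries, where 12.8% of tested long junctions and 9.08% of all tested A=1 junctions were.

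Long junctions were found in both libraries less often than shorter ones. Reads were present in R1 and R2 for 1615 of the 2224 (72.6%, exact 95% binomial interval 70.7 to 74.5%), against 83.1% (82.9 to 83.3%) of shorter A=1 junctions. Of the rest, 228 (10.3%) were in R1 alone and 381 (17.1%) in R2 alone. Shorter junctions leaned the same way, with 5.98% in R1 alone and 10.9% in R2 alone. Much of the gap between long and shorter junctions in the share found in both went with read number. Among junctions with 10 to 19 reads the share in both libraries was 97.7% for long and 97.4% for shorter ones, and all 558 long junctions with at least 50 reads were in both. Below 10 reads a gap remained at equal totals: 19.8% of long junctions with 2 reads were in both libraries, against 27.6% of shorter ones, and with 3 to 4 reads the shares were 41.4% (35.2 to 47.8%) and 54.2% (53.3 to 55.1%). With 5 to 9 reads they were 81.3% and 83.7%, with intervals that overlap.

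Agreement in level over all junctions was also looser. Spearman's correlation between R1 and R2 reads was 0.810 across the 2224 long junctions and 0.915 across the 151864 shorter ones, as a description over junctions that share 2 libraries and, in part, their genes. These correlations are not at equal depth, as long junctions had fewer reads. At equal totals the median absolute log2 ratio of R1 over R2 was 0.858 long against 0.788 shorter with 10 to 19 reads. With 20 to 49 reads it was 0.695 against 0.593. It was 0.440 against 0.446 with 50 to 99 reads, 0.362 against 0.341 with 100 to under 500 and 0.239 against 0.284 from 500 up. Junctions with at least 10 summed reads were tested with an exact two-sided binomial test against the R1 share of all A=1 reads, 49.4%, and called at a Benjamini-Hochberg adjusted p below 0.05 and a ratio of at least 2. Of all 105092 A=1 junctions tested, 9.08% were called. Of the 1206 long junctions tested, 154 were called (12.8%, interval 10.9 to 14.8%), against 9384 of 103886 shorter ones (9.03%). For calls higher in R1 the background was 3.88% and the long share was 6.97% (84 junctions). For calls higher in R2 the background was 5.2% and the long share was 5.80% (70 junctions). Which side held more calls depended on the settings: with the expected share taken from the median ratio of well-read junctions 72 were higher in R1 and 80 in R2, and with a minimum of 50 reads there were 33 on each side.

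The difference in call rate was present in the bins of 20 to 49 reads, 17.5% long (13.6 to 21.9%) against 12.04% shorter, and of 100 to under 500 reads, 9.86% (6.65 to 13.9%) against 6.25%. In the bins of 10 to 19 and of 50 to 99 reads the intervals overlapped. Of the 49 long junctions with at least 500 reads none was called (exact interval up to 7.25%), against 4.17% of shorter ones. Without the required ratio the order over all tested junctions turned: on the adjusted p alone, 20.7% of long and 23.3% of shorter junctions passed. The long junctions had a lower median depth (43 reads against 70), and the setting with any ratio was not repeated within bins of reads.

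**Figure D2:**
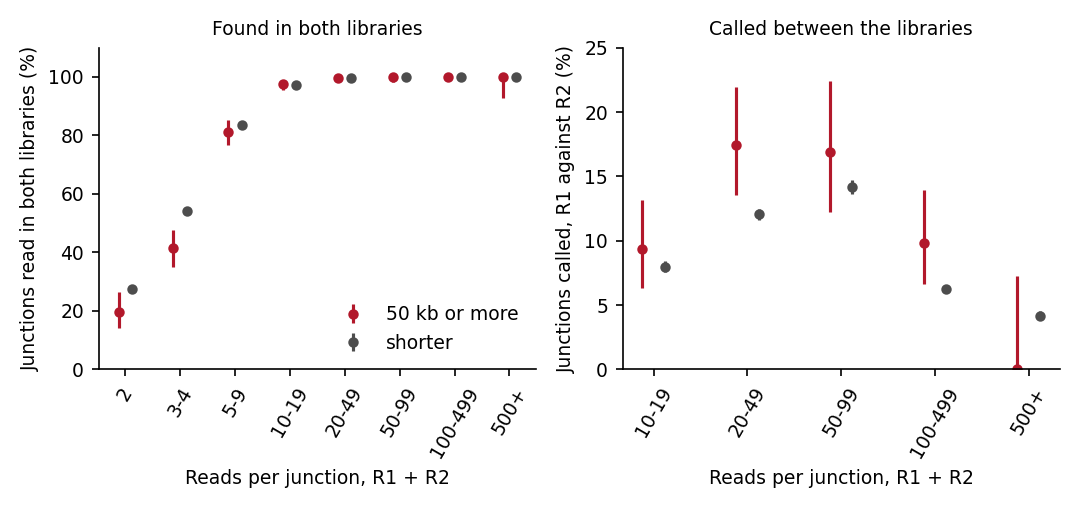
Left, the percent of A=1 junctions with reads in both libraries against summed reads; right, the percent of tested junctions called between R1 and R2. Red is 50 kb or more, grey is shorter, and bars are exact 95% binomial intervals; the left groups meet from 10 reads upward, and on the right 17.5% of long and 12.04% of shorter junctions are called at 20 to 49 reads.

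**Figure D3:**
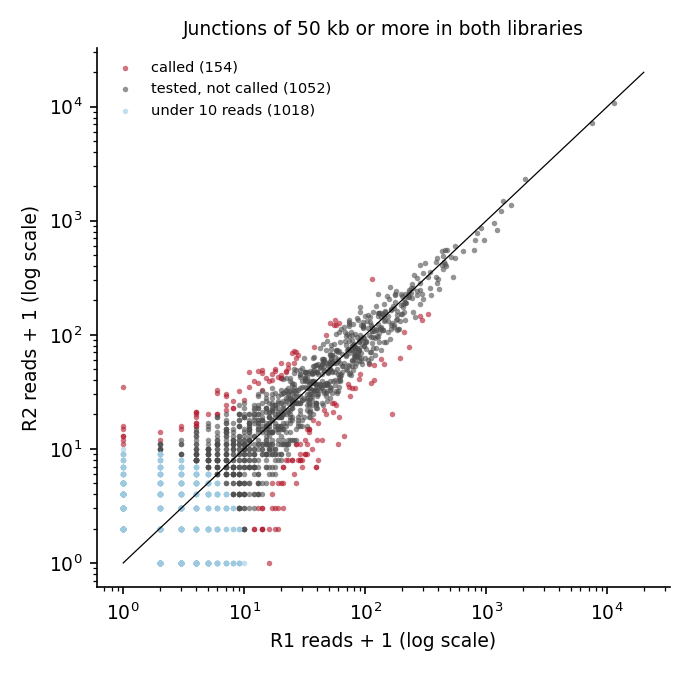
Reads in R2 against reads in R1, each plus 1 on log scales, for the 2224 long junctions. The 154 called junctions lie away from the line of equal reads, mostly at low counts, and the most read junctions lie on it.

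The most uneven long junctions had few reads, all on one side or nearly so. Higher in R1 were Plcl1 (15 reads in R1 and 0 in R2, adjusted p = 0.000565, exact binomial test), Atp8a2, a neuronal phospholipid flippase (18 and 1), Cdyl2, a chromodomain protein (17 and 1), Syndig1, a synapse protein (15 and 1) and Nckap5 (13 and 1). Higher in R2 were an unnamed junction of 87980 bases on chromosome 15 (0 reads in R1 and 34 in R2, adjusted p = 5.42e-09, exact binomial test), Mcf2l, an exchange factor for small GTPases (0 and 15), Scfd2, of the vesicle-fusion Sec family (0 and 14), Tiam1, an exchange factor for Rac (0 and 12), and Fam172a (0 and 12). The gene levels of all the named ones were within a ratio of 2 between the replicates, which nothing ties to R1 and R2. They were furthest apart for Fam172a, at 4.37 TPM in replicate 1 and 2.78 TPM in replicate 2. Plcl1 stood at 1 TPM in replicate 1 and 0.82 TPM in replicate 2, Atp8a2 at 5.78 and 5.22 TPM, and Mcf2l at 29.52 and 35.24 TPM. Mcf2l's long junction took 0% of the R1 reads at its acceptor and 30% of the R2 reads.

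Long junctions were spread over every chromosome except Y, where none of the 72 A=1 junctions was long. Their share of A=1 junctions was highest on chromosome 13 (127 junctions, 2.61%, interval 2.18 to 3.10%), followed by chromosome 18 (96, 2.57%), chromosome 6 (183, 2.40%) and X (88, 2.04%). It was lowest on chromosome 11 (103, 0.779%, interval 0.636 to 0.944%), with chromosomes 7 (112, 0.982%), 17 (78, 0.985%) and 4 (104, 1.00%) next. In counts, chromosome 6 had the most and chromosome 2, with 167, came second. The intervals of the 3 highest chromosomes overlap each other and not that of chromosome 11. They treat junctions as independent, although junctions of the same gene share their chromosome, so they are too narrow. The same chromosomes 13, 18 and 6 led and 11 stayed lowest of those with any at a limit of 30000 or 100000 bases and among junctions with at least 10 reads, with 18 ahead of 13 in 2 of these 3.

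The median reads of long junctions were below those of shorter ones on all 20 chromosomes that have both. They ran between 5.5 on X, against 13 for shorter junctions there, and 22 on chromosome 11, against 39. In summed reads chromosomes 5 and 16 came first with 14.1% and 13.7% of all long reads. Igfbp7 lies on the first of these and App on the second.

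**Figure D4:**
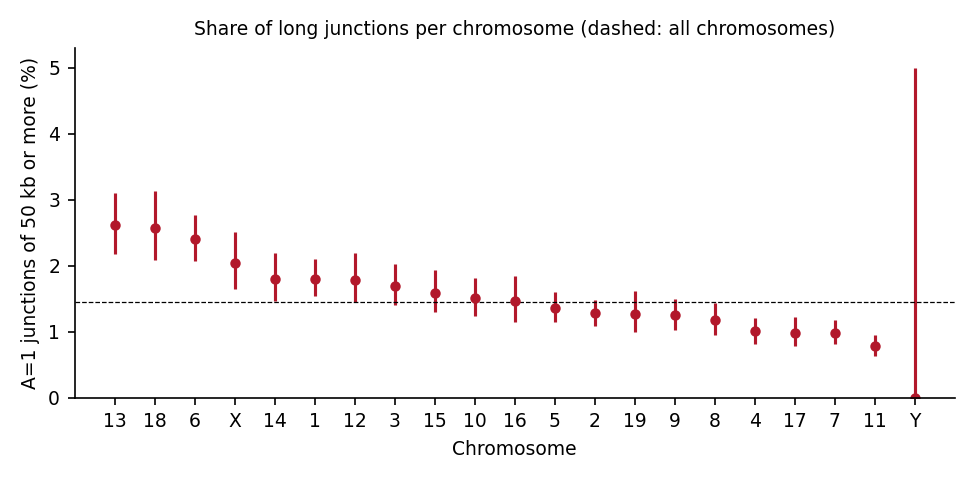
Percent of A=1 junctions that span 50 kb or more on each chromosome, ordered from high to low, with exact 95% binomial intervals; the dashed line is the 1.44% of all chromosomes. Chromosome 13 is at 2.61% and chromosome 11 at 0.779%, and the wide bar on Y comes from 0 of 72.

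Where long introns sit in their transcripts was taken from the matched annotation. The long intron was the first of every transcript that has it in 913 of 2162 cases (42.2%, interval 40.1 to 44.3%), the first of some in 204 and never the first in 1045 (48.3%). Among matched junctions of 10000 to under 50000 bases 33.8% were first in every transcript; in that class 422 of 11717 junctions still matched with 7 bases added. From 1000 to under 10000 bases 51.0% still did, so shorter classes are not given here. First introns had a median of 16 reads, against 8 for those that are never first, at nearly equal median lengths (74238 and 74472 bases). The intron lay within the coding sequence in 1501 cases (69.4%), before it in 443 (20.5%) and after it in 9; 92 varied with the transcript and 117 were in noncoding transcripts only.

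Most long junctions overlapped no other long A=1 junction of their strand. They formed 1959 separate loci, 1755 of which had a single one, and 6 was the most in a locus of overlapping introns. Junctions with the tag A=0, 69076 of them at least 50000 bases long, were left out of all counts in this paragraph. Other A=1 junctions ended at the same acceptor for 25.7% of long junctions, against 9.38% of shorter ones, and began at the same donor for 14.7%, against 8.54%. At shared acceptors with at least 10 reads, the long junction took a median of 34.5% of the reads, against 38.3% for shorter ones; at shared donors the medians were 47.4% and 42.6%. No A=1 junction lay inside 74.9% of long introns, and 20 was the most inside one.

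Several genes had many long introns in use. Long junctions numbered 1 in 850 genes, at least 2 in 483 and at least 5 in 35. Dpyd, which degrades pyrimidines, and Zbtb20, a zinc-finger repressor, had 9 each, with 138 and 50 reads in all. Rbms3, an RNA-binding protein, had 8 with 260 reads. Some of these differ by a few bases at one end, and some share an end: Rbms3 had introns of 141608 and 141611 bases and Slc39a11 of 94073 and 94052 bases.

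Slc39a11, a zinc transporter, was the most read of the genes with at least 7, at 1746 reads in all (874 in R1 and 872 in R2). Its introns 4 to 7 are each longer than 50000 bases and follow one another. The Slc39a11 intron of 59370 bases (chr11:113325410-113384779, minus strand) had 874 reads, the next of 94073 bases had 423, that of 63773 bases had 231 and that of 55318 bases had 174, so reads were lower with each step towards the 3′ end of this stretch. R1 and R2 were nearly even at all 4, with 444 and 430 at the most read and 87 and 87 at the least.

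The genes that host long junctions stood below protein-coding genes as a whole in level. Among protein-coding genes with at least 1 TPM, the 1036 hosts had a median of 7.94 TPM, against 14.0 TPM over all 12756. Across 1330 host genes the reads of the most read long junction went with the gene's mean TPM (Spearman's correlation 0.672, over genes that share the same libraries). Of 4417 annotated introns of at least 50000 bases in protein-coding transcripts, 2032 were read as A=1 (46.0%). The share was 7.61% in genes below 0.1 TPM, 34.8% up to 1 TPM, 58.2% up to 10 TPM, 63.6% up to 100 TPM and 65.8% above.

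Set against the gene's own shorter junctions, a long junction was more often below than above. For 1150 long junctions in 726 genes with at least 3 shorter junctions and a median there of at least 10 reads, the ratio of the long junction to that median was 0.774 at the median (quartiles 0.246 to 1.81), with 0.798 in R1 and 0.75 in R2. Against the mean of those junctions in place of their median it was 0.514. The ratio to the median was at least 1 for 43.0% and below 0.1 for 12.2%. Introns that are first in every transcript had a median ratio of 0.894 and those that are never first 0.646.

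A tail of first introns went far above the gene's other junctions. The long junction had at least 10 times the reads of the gene's median shorter junction in 36 cases in 35 genes, 31 of them the first intron of every transcript, and in 29 of the 36 the ratio was at least 10 in each library. The highest was Myo6, with 2867 reads on the first intron, 25 on the next and a median of 24 over 35 shorter junctions. Eif2ak1 had 2122 reads, 38 on the next and a median of 25. Atp8b1 had 4387, 13 on the next and a median of 76, and App 22254, 2155 on the next and a median of 857.5. Kif21a, a kinesin motor, had 651 reads and 13 on the next.

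The next junction was not always low. Tpd52, a vesicle-trafficking protein, had 993 reads on the long junction and 1130 on the next, with a median of 10.5 over 12. Ptprj, a receptor tyrosine phosphatase, had 1473 and 1344 with a median of 98. Elmo1, a partner of the Rac exchange factor Dock1, appeared with 2 long introns: the first, with 501 reads, and intron 15, with 155, over a median of 14.

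The contig table gives the authors' signal for stretches of continuous reads, from the same libraries, so its levels at junctions chosen for their high reads are a description and no separate evidence. For Myo6 the level was 62 over the first exon, 94.3 over the second and a median of 1.60 over the other exons. For Eif2ak1 the levels were 36.8, 15.9 and 1.82, and for App 146, 277 and 36.3. In all 34 of the 36 with levels to compare, the exon downstream of the long intron was above the median of the gene's other exons, by a median ratio of 6.44, where it was 1.11 over all long junctions compared; in 7 of the 34 the ratio reached 10.

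Such a tail was found for shorter first introns too. Used here were 4671 genes with a uniquely matched A=1 junction of at least 10000 bases and at least 3 later shorter junctions. A junction was set against the median of the gene's other later shorter junctions. It was kept only where at least 3 of these were left and their median was at least 10 reads, so not every gene or junction entered. A ratio of at least 10 was reached by 29 of 502 long first introns (5.78%, interval 3.90 to 8.19%), against 9.37% (8.24 to 10.6%) of first introns of 10000 to under 50000 bases, 5.004% from 1000 to under 10000 bases and 4.49% below 1000 bases. Among later introns it was 0.797% of the long ones (4 of 502), against 1.73%, 2.14% and 1.73% in the same classes. In every class of length the share that reached 10 was thus higher for first than for later introns. The medians did not all follow. The median ratio of long first introns was 0.897, against 1, 0.541 and 0.438 for first introns of the shorter classes. For later introns the medians were 0.673 for long ones and 0.793, 0.935 and 1 in the same classes. Below 10000 bases the median was therefore lower for first introns than for later ones.

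**Figure D5:**
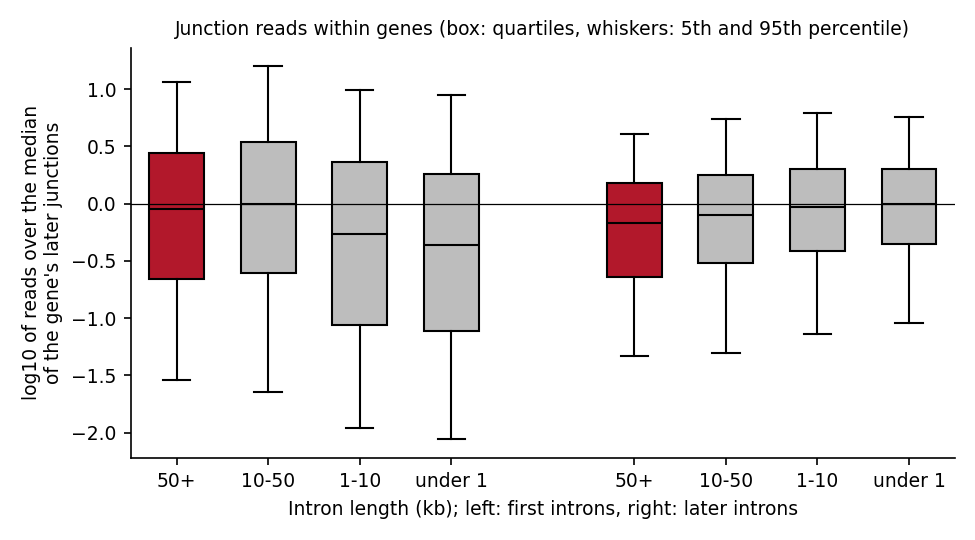
Reads of a junction over the median of the later shorter junctions of its gene, on a log10 scale, for first introns (left) and later introns (right) in 4 classes of length in kilobases. Boxes are quartiles with the median, whiskers the 5th and 95th percentile, and red marks 50 kb or more; medians of long introns are ratios of 0.897 for first and 0.673 for later introns.

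Gene groups were read from lists of genes known for long introns and of genes of colon cells, and each is described by its counts. Over all long junctions the median was 12 reads, and 9.08% of all tested A=1 junctions were called. Of 34 gene names for epithelial adhesion, polarity and transport, 32 of them in the annotation, 17 had a long junction, with a median of 45 reads over their 45 junctions, and 3 of the 31 tested were called. Ptprj had 803 reads in R1 and 670 in R2 on 105166 bases. Myo5b, a myosin of apical recycling, had 394 and 282 on 126959 bases, Myo1d, a membrane-bound myosin, 135 and 142, and Plekha7, of the adherens junction, 128 and 86.

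Of 30 smooth muscle and cytoskeleton genes 21 had a long junction, with a median of 9 reads over 45 junctions and 1 called of 21 tested. Actn1, an actin cross-linker, had 382 reads in R1 and 433 in R2, and Lpp, which sits at focal adhesions, 127 and 94. Mylk, the gene of the kinase that starts smooth muscle contraction, had 60 and 104 reads on 70064 bases. The annotation has this Mylk intron in noncoding transcripts only. Its adjusted p was 0.00853 by the exact binomial test, at a log2 ratio of -0.75 that is short of the required size.

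The list for neuron and glia adhesion also holds splicing and transcription factors. Its genes were often present but at low counts. A long junction was found for 25 of 30, with a median of 4 reads over 54 junctions and 0 called of 14 tested. Ptprd, a receptor phosphatase, had 43 reads in R1 and 60 in R2, and Cadm1, a cell adhesion molecule that epithelia also make, 25 and 49 on 257465 bases. Auts2 had 15 and 14 and Rbfox1, a splicing factor of neurons and muscle, 6 and 11. The list of fragile-site and very large genes was close to this one, with 14 of 20 names (17 in the annotation), a median of 4 reads over 46 junctions and 2 called of 14 tested. There Wwox had 32 and 23 reads on 190782 bases, Dmd, the dystrophin gene, 24 and 22, and Exoc4, of the exocyst, 20 and 25.

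Of 31 regulators of small GTPases 26 had a long junction (43 junctions, median 16 reads, 3 called of 26 tested). Rab27b, a GTPase of secretory granules, had 532 reads in R1 and 317 in R2, Elmo1 246 and 255, Dock1 161 and 164 and Dock5 63 and 67. Of 50 transcription factors and cofactors 43 had one, in 94 junctions with a median of 15 reads and 3 called of 54 tested. Tcf7l2, the nuclear effector of Wnt signalling in gut crypts, had 211 and 189 reads on 90557 bases, Arid1b, a chromatin remodeller subunit, 175 and 194, Foxp1 86 and 135 and Maml3, a Notch coactivator, 73 and 68 on 157655 bases. The counts of these 8 junctions lay within a ratio of 2 between the libraries.

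Of 24 RNA-binding and splicing proteins 13 had a long junction (28 junctions, median 32 reads, 3 called of 20 tested). Mbnl1, a regulator of alternative splicing, had 394 reads in R1 and 471 in R2. Celf1, which often acts against it, was called higher in R2, with 113 and 308 reads on 57938 bases (log2 ratio -1.41, adjusted p = 4.41e-19, exact binomial test). Rbpms had 142 and 132 reads and Rbms1 90 and 173. Of 37 kinases, phosphatases and phosphodiesterases 27 had one (51 junctions, median 12 reads, 2 called of 32 tested). Stk39, a kinase that controls ion cotransporters, had 269 and 222 reads, Pde3a, which breaks down cyclic nucleotides, 151 and 217, and Egfr, the epidermal growth factor receptor, 38 and 53 on 106325 bases. Ppp3ca, the calcineurin catalytic subunit, was called higher in R1 with 284 and 144 reads on 126824 bases (log2 ratio 1.01).

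Coverage around the junctions followed their reads. Contigs lay at both exon edges of 85.1% of long junctions, against 92.0% of shorter ones; with at least 10 reads the shares were 99.3% and 99.4%. The intron itself was under contigs for a median of 4.81% of its length in long introns, against 24.7% in shorter ones and 9.27% in those of 10000 to under 50000 bases. Contigs are called on stretches and an intron can hold other genes, so this share is not the retained intron.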

How the data were processed

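The authors deposited 1 table of splice junctions and 1 of contigs for the series, on mm9 per the deposited file notes, and gene and transcript tables per library on mm10 with GENCODE M4. The junction table gives a count of reads per junction, and the text tags A, C, R1 and R2 in each deposited junction name; R1 and R2 add up to that count. The contig table holds the authors' signal per contig, whose scale is not stated. Expected counts (46271167 in replicate 1 and 45499561 in replicate 2 over Ensembl genes), TPM and FPKM are as the authors deposited them, with columns as RSEM writes them per the file headers. Not given in the sources used here are the aligner, the callers, their versions, the meaning of A and C and whether duplicates were removed. A limit on how far a read must reach into each exon, or on intron length, would change the counts of long junctions.

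Members were taken by tag and length, their rule and the gene lists having been chosen with earlier results of these data known. Names come from GENCODE vM21 introns of equal chromosome, strand and length. Levels are as deposited; log2 ratios use read counts plus 0.5 without scaling, and the binomial test has the R1 share of A=1 reads as its expected share. On simulated counts with known ratios it called 200 of 200 changed junctions and 3 unchanged ones, of 105100 tested. Those counts held counting error only, and the changed junctions had at least 100 reads and a ratio of 4. The simulation therefore does not show how the test performs at fewer reads, at smaller ratios or where libraries differ beyond counting error. Genes named are the 10 most read, the 10 longest with at least 10 reads, the 5 on each side of the length limit, the 5 most uneven in each direction and the 4 most read of each list; the genes with most long junctions and those with a high within-gene ratio were chosen after their values were seen. A few genes that this rule takes are not reported here. Intervals are exact binomial (Clopper-Pearson) at 95% and, like the limit of 3 that a count of 0 allows, cover counting error only. Python 3.11.15, pandas 2.3.3, NumPy 2.4.6, SciPy 1.17.1 and matplotlib 3.10.9 were used.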

Additional observations from a re-analysis of the deposited data

Results flagged for a closer look

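Long junctions with the tag A=0 are outside the comparisons, and 288 of them also had the exact length of a single annotated intron. Against 49 when 7 bases were added, this is a signal in data the comparisons leave out. Their median was 3 reads and 68 had at least 10. The most read was in Sh3d19, an adaptor with SH3 domains, with 558 reads in R1 and 491 in R2, or 1049 in all, on 69401 bases. Zfand6 had 274 reads in all on 55336 bases, and Fam49b 262 on 51601 bases. All A=0 long junctions numbered 69076, and 78.0% of them had 1 read. Why these carry the tag A=0 was not tested.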

How the results depend on the processing

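A length limit of 30000 bases gave 4393 long junctions and one of 100000 gave 632; with at least 10 reads 1206 were left, in 1142 loci. In these 3 settings the long median was 0.464, 0.286 and 0.614 of the shorter median, where it was 0.429 at first, and 0.6 against shorter introns of 1000 to under 50000 bases. Any read in R1 was found on 1843 long junctions and any read in R2 on 1996. The ratios of medians within R1 and within R2 were 0.462 and 0.4. The percent of long junctions in both libraries was 74.8, 64.4 and 99.3 in the same 3 settings; that of shorter ones was 99.4 with at least 10 reads and 80.9 from 1000 bases up. With at least 10 reads the gap between long and shorter was thus gone. Chromosome 13 stood at 4.40%, 0.802% and 2.04%. Calls numbered 66 of 558 with a minimum of 50 reads and 250 with any ratio, and 152 with the expected share from the median ratio, which split them into 72 higher in R1 and 80 higher in R2 where it was 84 and 70. Adding 7 bases to the lengths left 5 matches. The median within-gene ratio was 0.514 against the gene's mean and 0.671 against the next junction (chosen after seeing the data), with 0.798 in R1 and 0.75 in R2 alone. The cause of these shifts was not tested, beyond the fewer junctions that a stricter limit leaves. The excess of long over all tested junctions in calls, 3.69 percentage points, turned to -2.54 with any ratio. Of 37 alternative values 16 stayed within their margin, 20 moved and this 1 changed direction. Margins were a set fold for counts, a set difference for the correlation and an exact interval or its width for shares and the excess in calls. For the median ratios the margin was the spread between R1 and R2. The R1 and R2 values of those ratios were judged by that same spread, so their staying within it says little. Adding 7 bases was a control meant to miss and is counted as moved. No paired analysis was possible because there is 1 group. Depth limits the long set: 1018 of 2224 had under 10 reads and were not tested, and 0 of 72 on Y has an exact interval up to 4.99%.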
